A study of Mus musculus with 4 samples.

Results

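The fibroblast growth factor (FGF) ligands and receptors of the mouse first pharyngeal arch were read as 10 genes chosen by symbol, 7 ligands (Fgf3, Fgf8, Fgf9, Fgf10, Fgf15, Fgf17, Fgf18) and 3 receptors (Fgfr1, Fgfr2, Fgfr3), out of 52459 genes listed. All 10 were found in the table. RNA came from the first arch of embryos between E9.5 and E9.75 with 25 to 27 somites, in 2 libraries of Wnt1-Cre;pMes-Bmp4 embryos, called TG in the labels, and 2 of wild-type embryos. In Wnt1-Cre;pMes-Bmp4 embryos a Cre recombinase under the Wnt1 promoter, active in the neural crest lineage, turns on a Bmp4 transgene. Neither Wnt1-Cre alone nor pMes-Bmp4 alone is among the groups, so the effect of more Bmp4 cannot be told apart from that of the transgenes as such or of strain background. Libraries are numbered 1 and 2 within a genotype, and no label says whether they hold separate embryos or litters. The p-values thus measure the spread between these libraries alone, which may be technical.

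FGFs are secreted proteins that bind receptor tyrosine kinases together with heparan sulfate, and the receptors signal through the adaptor FRS2 to RAS and ERK. In the early arch, Fgf8 from the oral ectoderm is known to keep the crest-derived mesenchyme alive and to set up its proximal, tooth-forming part. BMP4 from the distal ectoderm is known to oppose FGF8 in placing the tooth field. Fgfr1 is carried mainly by mesenchyme and Fgfr2 by both epithelium and mesenchyme in different splice forms, which gene-level counts do not separate.

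The Wnt1-Cre;pMes-Bmp4 libraries held 31404494 and 29607541 reads assigned to genes, and the wild-type libraries 47849092 and 33763574. Bmp4 was read at a normalized read count of 2656 and 1745 in the TG libraries, against 682 and 437 in the wild-type libraries (reads of a gene divided by the library's size factor). Mesenchyme markers were high in all libraries, led by Prrx2 and Prrx1, as is typical of the arch. Across 16746 genes with a mean of at least 10, limma with Benjamini-Hochberg adjustment called 5.28% lower and 2.97% higher in TG, at an adjusted p under 0.05. Both TG libraries lay below both wild-type libraries in 29.7% of these genes and above them in 30%. Long transcripts tended to be lower in TG, with Spearman's rho of -0.394 between transcript length and log2 fold change over 12178 genes, which are not independent replicates. The same rho was -0.192 for TG 2 minus TG 1 and 0.284 for wild-type 2 minus wild-type 1. Mitochondrial genes took 1.31% and 1.58% of reads in TG and 2.41% and 2.52% in wild-type, and globin genes 1.25% in each TG library and 2.28% and 2.12% in wild-type, and their part in the results was not tested. This is bulk RNA, so fewer cells of a type and less RNA per cell cannot be told apart.

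Fgf8 stood highest of the 10 genes per length of transcript, which allows levels of different genes to be compared. It was read at 1750 and 1200 normalized reads per kb in the Wnt1-Cre;pMes-Bmp4 libraries, against 2170 and 2070 in the wild-type libraries. Fgfr2 followed with 324 and 231 per kb in TG and 269 and 262 in wild-type. Fgfr1 had 131 and 100.1 per kb in TG and 212 and 312 in wild-type. Their order was not the same everywhere: Fgfr2 was above Fgfr1 in both TG libraries and in wild-type 1, and below it in wild-type 2. Fgf10 ranked 4 of the 10 in each library, between 46.6 and 57.0 per kb in TG and between 63.3 and 68.0 in wild-type. Fgfr3, Fgf18, Fgf9 and Fgf17 overlapped one another, between 7.18 and 24.6 per kb in TG and between 2.84 and 14.3 in wild-type. Fgf15 and Fgf3 were lowest, at no more than 6.03 per kb in any library.

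Fgfr1 was lower in Wnt1-Cre;pMes-Bmp4 and was the 1 gene of the 8 tested to pass, at a background of 5.28% lower over all genes tested. The receptor gene (ENSMUSG00000031565.18, chromosome 8 at 25513654 to 25575718 of GRCm38, plus strand) had normalized read counts of 659 and 504 in the TG libraries, against 1067 and 1571 in the wild-type libraries. Both TG libraries were below both wild-type libraries, and the wild-type libraries themselves differed 1.47-fold. Fgfr1 averaged 582 ± 109 in TG and 1319 ± 356 in wild-type (SD, n = 2 each), 2.27-fold lower. Its log2 fold change on the log2(value + 1) scale was -1.17 ± 0.23 (SE), with a 95% interval of -1.70 to -0.63 and a limma adjusted p of 0.0333. edgeR on the recovered whole reads gave a log2 fold change of -1.20 and an adjusted p of 0.0310, where 5.46% of all genes were called lower.

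Without wild-type replicate 1 the Fgfr1 log2 fold change was -1.44 with a limma adjusted p of 0.115, and without wild-type replicate 2 it was -0.89 with an adjusted p of 0.379. In these fits 0 and 1 of all 16746 genes passed, and Bmp4 lost its call too, so the lost call is not particular to Fgfr1. The longest Fgfr1 transcript has 5041 bases. Among 2699 genes within 20% of this length (mean of 50 or more), the median log2 fold change was -0.11 and 7.04% were called lower. After a correction for transcript length the Fgfr1 log2 fold change was -0.96 with a limma adjusted p of 0.0610, so the call was lost at a background of 0.998% lower. After a correction for length and GC content it was -0.84 with a limma adjusted p of 0.0269, at a background of 4.58% lower. Fgfr1 shares 164 exon bases with Gm16159, an antisense gene read at 10.7 and 1.21 in Wnt1-Cre;pMes-Bmp4 and at 4.45 and 16.5 in wild-type.

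Fgfr2, the receptor through which Fgf10 signals to epithelium, had normalized read counts of 1433 and 1022 in the Wnt1-Cre;pMes-Bmp4 libraries, against 1193 and 1160 in the wild-type libraries. The wild-type values lay between the TG values. For Fgfr2 the difference was 0.04 ± 0.19 (SE) on the log2 scale, with a 95% interval of -0.40 to 0.48 and a limma adjusted p of 0.906. The annotated span of Fgfr2 takes in Ctbp2 on the same strand, with 314 exon bases in common, so reads there cannot be assigned with certainty. Ctbp2 was read at 1709 and 1861 in TG and at 3078 and 3790 in wild-type, above Fgfr2 in every library. Fgfr3, a receptor best known from cartilage and growth plates, had 80.0 and 47.3 in TG and 55.6 and 53.5 in wild-type. Its groups overlapped too, with a log2 fold change of 0.17 ± 0.38 (SE), a 95% interval of -0.72 to 1.06 and a limma adjusted p of 0.798. The intervals of Fgfr2 and Fgfr3 leave room for changes in either direction.

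The receptor reads were also split within each library, a measure on which library scaling has no bearing and which holds the same Fgfr1 and Fgfr2 values again. Fgfr1 supplied 30.3% and 32.0% of the reads of the 3 receptors in the Wnt1-Cre;pMes-Bmp4 libraries, with exact binomial 95% intervals of 28.3% to 32.4% and 29.5% to 34.7%. In the wild-type libraries it supplied 46.1% and 56.4%, with intervals of 44.3% to 47.8% and 54.5% to 58.3%. These intervals cover counting error only, and those of the wild-type libraries do not overlap each other. Fgfr2 held 66.0% and 64.9% in TG and 51.5% and 41.7% in wild-type, and Fgfr3 stayed between 1.92% and 3.68% throughout. The ratio of Fgfr1 to Fgfr2 reads was 0.46 and 0.493 in TG and 0.894 and 1.35 in wild-type. The log2 ratio averaged -1.07 ± 0.07 in TG and 0.14 ± 0.42 in wild-type (SD, n = 2 each), a difference of -1.21. An exact two-sided permutation test gave p = 0.333, the smallest that 2 against 2 libraries allow. The ratio of Fgfr2 to Fgfr3 overlapped between the groups, with 17.9 and 21.6 in TG and 21.5 and 21.7 in wild-type.

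**Figure D1:**
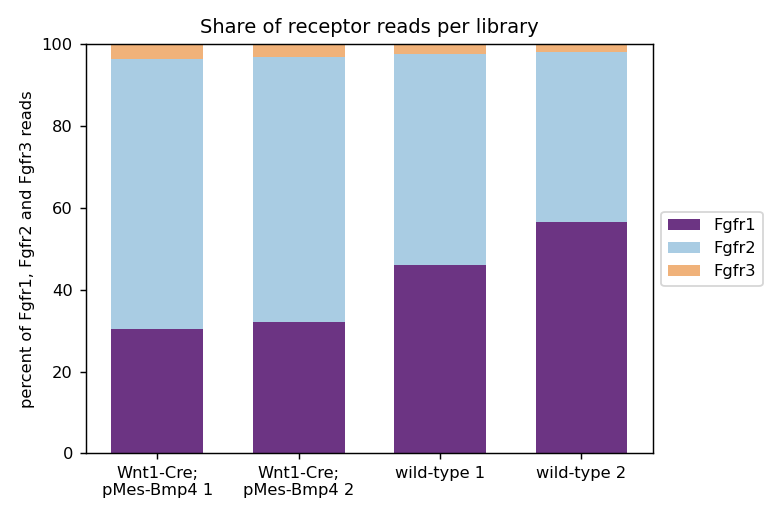
Stacked bars give the percent of all Fgfr1, Fgfr2 and Fgfr3 reads that each receptor took in each library, with Wnt1-Cre;pMes-Bmp4 libraries on the left and wild-type libraries on the right. The Fgfr1 part is 30.3% and 32.0% in TG and 46.1% and 56.4% in wild-type.

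Markers of arch mesenchyme, where Fgfr1 is mainly carried, were read beside it. Of 8 tested, 1 was higher, Prrx2, 1 was lower, Foxc1, and 6 did not pass in limma, with a median log2 fold change of -0.38 against 0.02 for all genes tested. After the length correction 0 of the 8 were called in limma. At an unadjusted p under 0.05 that fit had 1 higher and 2 lower, against 1883 and 1968 of 16225 genes. The summed level of the 8 was 26540 and 20920 in Wnt1-Cre;pMes-Bmp4 and 18820 and 22560 in wild-type. Prrx2 alone held 15750 and 11810 of this sum in TG and 6664 and 6995 in wild-type. Of the 8, 5 had both TG libraries below both wild-type libraries and 1 had both above, against 29.7% and 30% of all genes tested. None of the 8 was at 0 in any library. Fgfr1 reads were also divided by those of each of the 8 markers, a step added after the values were seen, in which all ratios share the Fgfr1 reads. The ratio was lower in both TG libraries than in both wild-type libraries for 7 of the 8. Differences in log2 ratio ran from -2.17 for Prrx2 to -0.06 for Foxc1, with a median of -0.79. Fgfr1 was itself lower without overlap, so a lower ratio is likely against any gene that changed little. The share of all genes giving such a ratio was not computed, so the count is not particular to mesenchyme markers. For Foxc1 the groups overlapped, at 0.662 and 0.754 in TG and 0.668 and 0.81 in wild-type. Against Twist1, another marker of crest mesenchyme, the ratio was 0.258 and 0.238 in TG and 0.321 and 0.377 in wild-type.

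Among the ligands, Fgf8, the oral ectoderm signal, was the most abundant and the one with the smallest p. Fgf8 is on chromosome 19, from 45736798 to 45742915 of GRCm38, on the minus strand. Its normalized read counts were 2047 and 1403 in the Wnt1-Cre;pMes-Bmp4 libraries, against 2535 and 2415 in the wild-type libraries. Both TG libraries lay below both wild-type libraries, and they differed 1.46-fold from each other, against 1.05-fold within wild-type. Fgf8 averaged 1725 ± 455 in TG and 2475 ± 85.1 in wild-type (SD, n = 2 each). For Fgf8 the difference was -0.55 ± 0.19 (SE) on the log2 scale, with a 95% interval of -0.996 to -0.096 before adjustment. The limma adjusted p was 0.115, so Fgf8 did not pass. After the length correction the difference was -0.74 (limma adjusted p 0.127), and after the length and GC correction -0.27 (limma adjusted p 0.178). DESeq2, run without these corrections, gave -0.53 with an adjusted p of 0.0519. In limma without them, the log2 fold change was -0.82 without TG replicate 1 and -0.27 without TG replicate 2. Each of the latter fits has 1 TG library, which is assumed to vary like the wild-type libraries, and these were close for Fgf8.

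Epithelial markers, which mark the tissue that makes Fgf8, were read beside it. Of 13 tested, Krt18 and Krt14 were higher and 11 did not pass in limma, at a background of 2.97% higher, and 12 of the 13 had both Wnt1-Cre;pMes-Bmp4 libraries above both wild-type libraries, against 30% of all genes tested. The median log2 fold change of the list was 0.57, and its summed level over 14 genes was 40930 and 37950 in TG and 30170 and 22880 in wild-type. Krt5 was the marker at 0 in some libraries, namely TG 1 and wild-type 2. After the length correction 0 of the 13 were called in limma. At an unadjusted p under 0.05 that fit had 8 higher, against 1883 of 16225 genes. In DESeq2, run without the length correction, 7 of the 13 were called higher, against 1284 over all genes. Fgf8 reads were divided by those of each of the 13 markers in the same way. The ratio was lower in both TG libraries than in both wild-type libraries for 12 of the 13. Differences in log2 ratio ran from -1.53 for Krt14 to -0.43 for Esrp1, with a median of -1.11. For these 12 the ratio had to be lower, since Fgf8 lay below wild-type and each marker above it without overlap. This count thus adds nothing to the values already given. Against Epcam the ratio was 0.337 and 0.236 in TG and 0.474 and 0.568 in wild-type. Against Esrp1 the groups overlapped, at 3.76 and 2.40 in TG and 3.48 and 4.67 in wild-type. The part of tissue make-up in the Fgf8 and Fgfr1 values was not tested.

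Fgf10, a mesenchymal ligand for the epithelial form of Fgfr2, had normalized read counts of 235 and 192 in the Wnt1-Cre;pMes-Bmp4 libraries, against 260.4 and 279.8 in the wild-type libraries. The groups did not overlap, but the log2 fold change of -0.35 ± 0.22 (SE) did not pass, with a 95% interval of -0.86 to 0.16 and a limma adjusted p of 0.333. Fgf9, which is made by epithelia and signals to mesenchyme, had 35.2 and 30.3 in TG and 34.9 and 51.4 in wild-type. Its groups overlapped (log2 fold change -0.37 ± 0.41 SE, limma adjusted p 0.592). The Fgf9 value was -0.64 without wild-type replicate 1 and -0.09 without wild-type replicate 2.

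Fgf17 and Fgf18 belong to the same subfamily as Fgf8 and were both near the lower limit of the test. Fgf17 had 18.1 and 12.1 in Wnt1-Cre;pMes-Bmp4 and 20.8 and 16.5 in wild-type, with overlapping groups (log2 fold change -0.30 ± 0.55 SE, limma adjusted p 0.751). Fgf18 had 26.7 and 10.9 in TG and 13.4 and 3.09 in wild-type. Replicate 1 was the higher library of Fgf18 in both groups, and the groups overlapped. Its log2 fold change was 1.25 ± 0.84 (SE), with a 95% interval of -0.73 to 3.22 and a limma adjusted p of 0.368. When 1 library was left out it ranged from 0.34 without wild-type replicate 2 to 2.15 without wild-type replicate 1, and Fgf17 ranged from -0.57 to -0.03 without TG replicate 1 and 2 in turn. From the whole reads, 34 in TG and 21 in wild-type, the Fgf18 ratio after scaling was 2.13 with an exact counting interval of 1.20 to 3.87. This interval leaves out the spread between libraries, which was 2.44-fold within TG and 4.33-fold within wild-type.

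Fgf15 and Fgf3 were too low to be tested, with means of 5.58 and 2.35 over the 4 libraries. Fgf15, the mouse counterpart of a human FGF that acts at a distance, had 6 and 9 reads in the Wnt1-Cre;pMes-Bmp4 libraries, against 4 and 2 reads in the wild-type libraries. Scaled, these were 6.40 and 10.9 in TG and 2.97 and 2.06 in wild-type, so both TG libraries were higher. The ratio of the group sums was 3.29, with an exact counting interval of 1.21 to 10.4. Fgf15 shares 761 exon bases with the antisense gene Gm26793, read at 2.13 and 6.06 in TG and at 2.97 and 4.11 in wild-type, and whether counting used the strand is not stated. Fgf3, a ligand of pharyngeal endoderm and the otic region, had 2 and 0 reads in TG and 7 and 2 reads in wild-type, a ratio of 0.293 with a counting interval of 0.0308 to 1.41. With no filter on low values neither passed, at limma adjusted p values of 0.517 for Fgf15 and 0.629 for Fgf3.

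**Figure D2:**
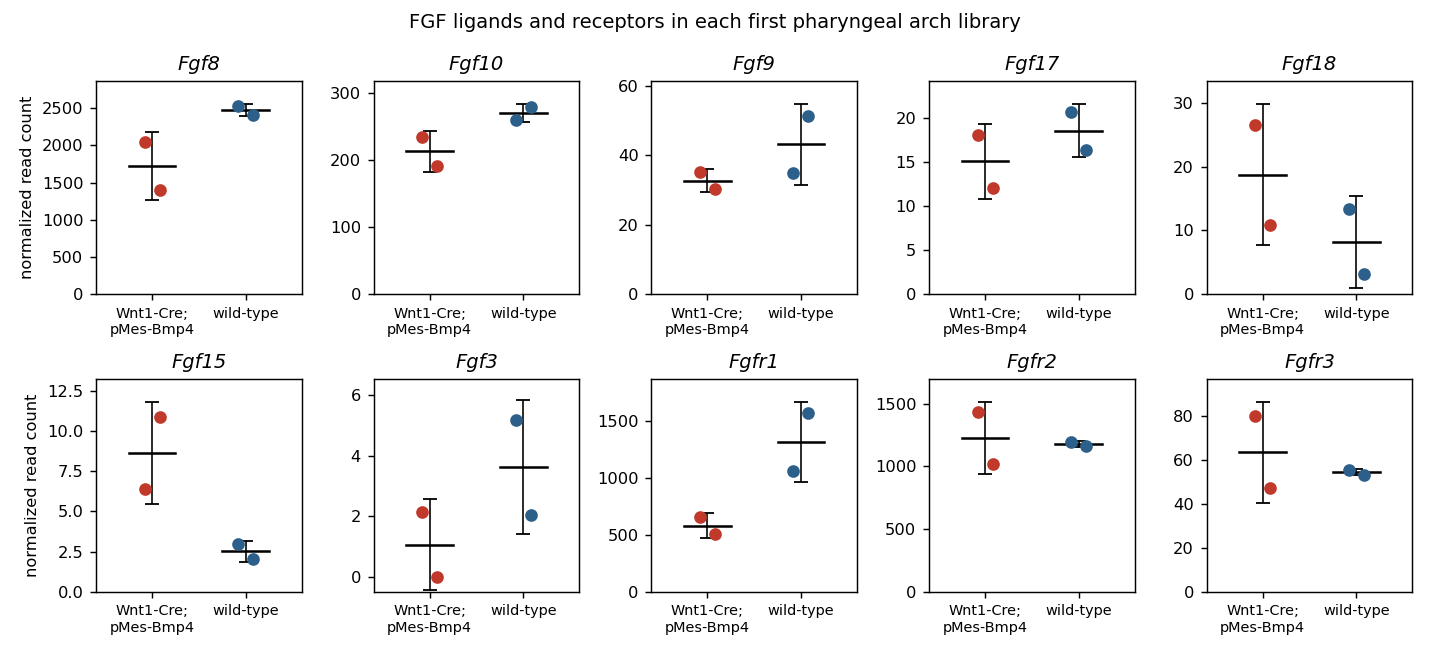
Each panel shows the normalized read count of 1 gene on a linear axis, with Wnt1-Cre;pMes-Bmp4 on the left and wild-type on the right. Points are the 2 libraries of each group, lines the mean and bars the SD; Fgf8, Fgf10 and Fgfr1 are lower in both TG libraries than in both wild-type libraries, and Fgf15 is higher in both.

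Of the 8 genes tested, 1 was called lower, 0 were called higher and 7 did not pass in limma. At an unadjusted p under 0.05 limma had 2 lower, Fgfr1 and Fgf8, where 15.3% of all genes were lower, and 0 higher, and edgeR and DESeq2 also had 2 lower and 0 higher at that level. In 3 of the 8, Fgfr1, Fgf8 and Fgf10, both Wnt1-Cre;pMes-Bmp4 libraries were below both wild-type libraries, against 29.7% of all genes tested, and in 0 of the 8 both were above. The median log2 fold change of the 8 was -0.32, against 0.02 over all genes tested. Of the 8 values, 5 were negative and 3 positive.

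**Figure D3:**
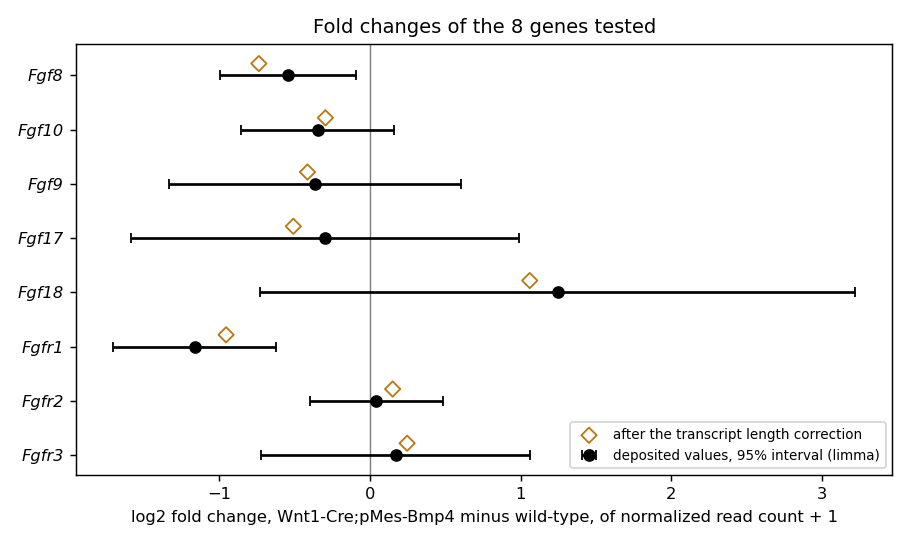
The log2 fold change, Wnt1-Cre;pMes-Bmp4 minus wild-type, is shown for the 8 genes tested, with 95% intervals from limma (filled points) and the value after the transcript length correction (open diamonds). Fgfr1 sits at -1.17 and the other genes between -0.55 and 1.25, with wide intervals for the low genes Fgf17 and Fgf18.

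Fgf8 dominated the ligand reads in every library. It took 86.4% and 84.6% of the reads of the 7 ligands in the Wnt1-Cre;pMes-Bmp4 libraries and 88.3% and 87.2% in the wild-type libraries. Both TG shares were below both wild-type shares, but the exact binomial interval of TG 1, 84.9% to 87.8%, overlapped that of wild-type 2, 85.9% to 88.4%. Fgf10 took 9.9% and 11.5% in TG and 9.06% and 10.1% in wild-type. The ratio of Fgf8 to Fgf10 reads overlapped between the groups, at 8.72 and 7.32 in TG and 9.74 and 8.63 in wild-type. The ratio of Fgf10 to Fgfr2, a ligand and its receptor, was 0.164 and 0.187 in TG and 0.218 and 0.241 in wild-type, without overlap and with an exact permutation p of 0.333.

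Markers of other places that make these ligands were read as well. Of 10 markers of neural tube and midbrain-hindbrain boundary, where Fgf8, Fgf15 and Fgf17 are also made, 3 reached the level for a test. Otx2 was at 639 and 593 in Wnt1-Cre;pMes-Bmp4 and 734 and 522 in wild-type, and Gbx2 was lower, at 12.8 and 13.3 in TG and 117 and 147 in wild-type (limma adjusted p 0.0194). En2 overlapped between the groups. Bulk RNA does not show which tissue these 3 genes were read from, so the lower Gbx2 is not taken as a measure of neural tissue. Olig2 was at 0 in all libraries, and Sox1, En1, Pax5, Pax2, Wnt1 and Hes5 had means of at most 3.02. Of these low genes, Pax5 and Hes5 were higher in both TG libraries. The summed level of the list, most of it Otx2, was 690.0 and 649 in TG and 884 and 711 in wild-type. None of 6 otic markers could be tested (0 of 6), and their summed level was 21.3 and 21.8 in TG and 17.1 and 38.1 in wild-type. Of 6 pharyngeal endoderm markers tested, led in level by Foxe1 and Sox17, 0 passed in limma and in edgeR and 1 was lower in DESeq2, with 2 lower at an unadjusted limma p under 0.05. These 2 were Foxa1, at 52.3 and 42.4 in TG and 100.9 and 97.7 in wild-type, and Foxa2, at 32.0 and 23.0 against 86.8 and 71.0. Foxa2 was the gene called in DESeq2. Foxe1, Sox17, Pax1 and Nkx2-3 overlapped between the groups. Of the untested markers, Shh was lower and Hhex higher in both TG libraries, at low values. The summed level of the 9 endoderm markers was 1270.0 and 840.2 in TG and 1149 and 983 in wild-type. Nkx2-1 was at 0 in both TG libraries and in wild-type 1. The part of these tissues in the ligand values was not tested. Of 6 cranial mesoderm markers 0 passed in limma and in edgeR, 1 was higher and 2 were lower in DESeq2, and the same counts had an unadjusted limma p under 0.05. Of 7 endothelium markers 0 passed in limma and in edgeR and 2 were higher in DESeq2, with 4 higher at an unadjusted limma p under 0.05. Their median log2 fold change was 0.49 and their summed level 4669 and 5021 in TG and 3761 and 3608 in wild-type. Of 7 red cell markers, Hbb-y and Hba-x were lower and 5 did not pass in limma, against 5.28% lower over all genes tested. At an unadjusted limma p under 0.05, 2246 of all 16746 genes were higher and 2570 lower. DESeq2 called 1284 of all genes higher and 1582 lower.

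The rest of the ligand and receptor family gave no call in limma. Of 17 further genes, 6 were tested, with 0 higher and 0 lower in limma and in edgeR. DESeq2 called 1 higher (1284 over all genes), and 1 was higher at an unadjusted limma p under 0.05 (2246 over all genes). That gene was Fgf13, an FGF-like protein that stays inside the cell, at 408 and 339 in Wnt1-Cre;pMes-Bmp4 and 251 and 190.3 in wild-type, with a log2 fold change of 0.76 and a limma adjusted p of 0.0806. Fgfrl1, a receptor that lacks the kinase domain, had 491 and 279 in TG and 359.7 and 515 in wild-type, and its groups overlapped. Fgf2, a matrix-bound ligand, had 2.13 and 6.06 in TG and 23.0 and 11.3 in wild-type, with a log2 fold change of -1.87 and a limma adjusted p of 0.174, and it overlaps Nudt6 on the opposite strand. Fgf7, Fgf20 and Fgf1 gave log2 fold changes of -0.16, 0.29 and 0.16, and their limma adjusted p values were 0.868, 0.714 and 0.901. The other 11 genes had means under 10, and Fgf6 was at 0 in every library.

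Of 14 tested genes for FGF co-receptors, FGF-binding proteins and heparan sulfate enzymes, 2 were higher in TG, 1 was lower and the other 11 did not pass in limma, against 2.97% higher and 5.28% lower over all genes tested. Their median log2 fold change was -0.22. Flrt3, a membrane protein that binds FGF receptors, had 4204 and 4559 in Wnt1-Cre;pMes-Bmp4 and 2696 and 2572 in wild-type, with a log2 fold change of 0.73 (limma adjusted p 0.0268). Ext2, a polymerase of heparan sulfate chains, had 1668 and 1416 in TG and 966 and 984 in wild-type (log2 fold change 0.66, limma adjusted p 0.0442). Ndst1, which starts the sulfation of these chains, had 706 and 451 in TG and 1033 and 1339 in wild-type (log2 fold change -1.06, limma adjusted p 0.0456). Flrt3 still passed with lengths corrected, at 0.76 (limma adjusted p 0.0493) and a background of 0.659% higher, while Ext2 and Ndst1 did not, at 0.63 and -0.68 with adjusted p values of 0.0632 and 0.128.

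Of 20 adaptors and kinases between the receptors and ERK, 3 were lower in TG, 1 was higher and the other 16 did not pass in limma, against 5.28% lower and 2.97% higher over all genes tested. Their median log2 fold change was -0.21. Cbl, a ubiquitin ligase that marks active receptors for breakdown, had 593 and 593 in Wnt1-Cre;pMes-Bmp4 and 1225 and 1512 in wild-type (log2 fold change -1.20, limma adjusted p 0.0213). Braf, a kinase upstream of ERK, and Sos1, an activator of RAS, gave log2 fold changes of -1.02 and -1.08 (limma adjusted p 0.0240 and 0.0276). The longest transcripts of Cbl, Braf and Sos1 have 11372, 9728 and 8436 bases. After the length correction 0 of the 20 passed in limma, and 5 had an unadjusted p under 0.05, against 3851 of 16225 genes. Cbl then stood at -0.54 (limma adjusted p 0.0926), Braf at -0.43 (0.178) and Sos1 at -0.56 (0.114). The direct receptor adaptor Frs2 did not pass, at 479 and 399 in TG and 612 and 678 in wild-type.

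Of 12 feedback inhibitors and ETS factors downstream of FGF, 4 were lower, 0 were higher and 8 did not pass in limma, against 5.28% lower and 2.97% higher over all genes tested. The median log2 fold change was -0.51, and 11 of 12 values were negative, against 48.7% of all genes tested. The 4 called lower were Spry4, Spry2, Spred2 and Il17rd, all of them dampers of receptor signalling. The part of FGF signalling in their values was not tested. Spry4 had 129 and 125 in Wnt1-Cre;pMes-Bmp4 and 323 and 407 in wild-type, with a limma adjusted p of 0.0223. Spry2 had 266 and 154 in TG and 483 and 551 in wild-type, with a limma adjusted p of 0.0365. Spred2 had 337 and 338 in TG and 679 and 903 in wild-type, with a limma adjusted p of 0.0239. With lengths corrected Spry4, Spry2 and Spred2 still passed, at -1.34 (limma adjusted p 0.0389), -1.56 (0.0493) and -1.10 (0.0438), where 0.998% of all genes were called lower. Il17rd did not, at -0.56 with an adjusted p of 0.146. The ETS factors Etv1, Etv4 and Etv5, with log2 fold changes of -0.45, -0.57 and 0.01, did not pass. DESeq2 called 5 of the 12 lower and 0 higher, against 1582 and 1284 over all genes. Those 5 were the 4 called in limma and Dusp6, which in limma had a log2 fold change of -0.45 and an adjusted p of 0.0698.

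Of 6 mesenchyme genes known to need Fgf8, 1 was lower, 0 were higher and 5 did not pass in limma, against 5.28% lower over all genes tested. Their median log2 fold change was -0.19. At an unadjusted limma p under 0.05, 1 was higher and 2 were lower, against 2246 and 2570 of all 16746 genes. Barx1, a homeobox gene of the molar-forming mesenchyme, had 1617 and 695 in Wnt1-Cre;pMes-Bmp4 and 3507 and 6853 in wild-type (log2 fold change -2.21, limma adjusted p 0.0321). Its call was lost after the length correction, at -2.41 with a limma adjusted p of 0.0520. Lhx8, another gene of proximal mesenchyme, had 1984 and 1737 in TG and 944 and 1401 in wild-type, with a log2 fold change of 0.69 and a limma adjusted p of 0.0801. Without wild-type replicate 1 or 2, limma called 0 and 1 of all 16746 genes, so calls in these 5 lists cannot be read there. At an unadjusted p under 0.05 these fits held 17 and 13 of the 58 genes tested in the lists, against 3185 and 1806 of the 16746.

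**Figure D4:**
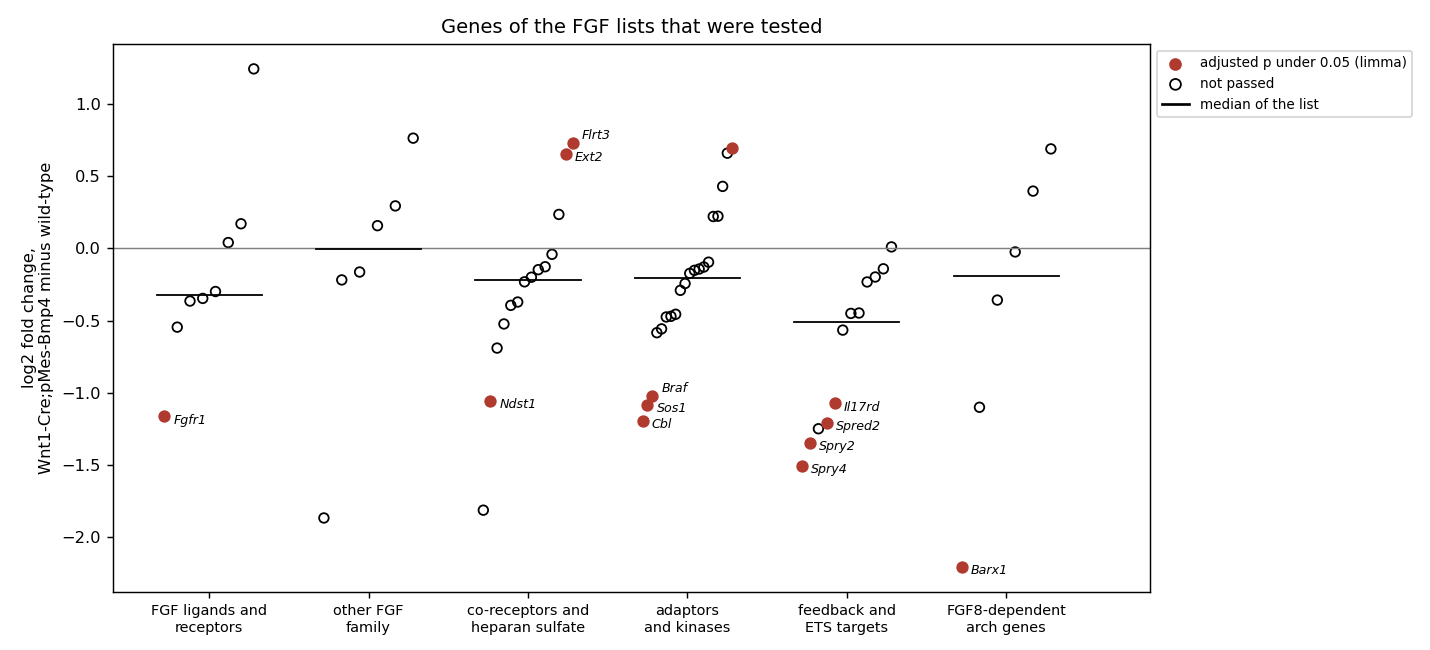
Each point is the log2 fold change, Wnt1-Cre;pMes-Bmp4 minus wild-type, of a tested gene in 1 of 6 FGF lists, filled where the limma adjusted p is under 0.05 and named where the text describes it, with a line at the median of the list. The feedback list has 4 filled points, all below 0, and the other lists hold 0 to 4.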

How the data were processed

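Libraries were made from fragmented polyA RNA by random priming, per the labels' protocols. The deposited table gives a normalized signal for each gene, which per the file headers starts from featureCounts reads. Each value is a read count over 1 size factor per library, by the authors. Per the submitters' processing notes fastp 0.21.0 and the mm10 build were used, while aligner, annotation release and strand setting were not given in the sources used here. Whole reads were recovered for 100% of values, within 0.01, as multiples of the smallest positive value of a column, and 16622 of 52459 genes had none.

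Genes with a mean of at least 10 (16746) were tested two-sided in limma 3.58.1 (R 4.3.3) with a mean-variance trend on log2(value + 1), with Benjamini-Hochberg adjustment over all of them and a threshold of 0.05. The pseudocount understates changes of low genes. The fit had 2 residual and 5.26 prior degrees of freedom. The 10 genes, 5 further FGF lists, 8 marker lists, the tests and the alternatives were chosen with earlier results of these data known; the crossed replicate block was added after seeing the data. Named genes were the 10, Bmp4, further family genes with a mean of at least 10, at most 4 called genes of each FGF list (the 2 with the smallest p where fewer than 2 passed) and the 2 highest markers of a list; the others named, such as Frs2, the Etv genes, Epcam, Esrp1, Twist1, Krt14, Krt5 and Foxc1, were chosen after their values were seen. Lists are counted whole, but some of their genes are not reported here by name.

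Lengths, GC content and coordinates were read from GENCODE M21 for GRCm38 (mm10), with the longest transcript of each gene (found for 96.9% of genes tested). The length correction subtracted from each library a spline (4 degrees of freedom) of its deviation from gene means on log2 length, fitted where the mean was 50 or more. edgeR 4.0.16 and DESeq2 1.42.0 ran on the recovered reads as alternatives. The steps were tested on simulated data, 3 draws of 200 changed genes among 16746: limma recovered 37.3% of 2-fold and 79.3% of 4-fold changes with 6.33 false calls on average. The simulated counts held no shift with transcript length between libraries, which these data have, so the rate of false calls does not carry over to them. Promoter and protein sequences were not used here. Figures used matplotlib 3.10.9 in Python 3.11.15.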

Additional observations from a re-analysis of the deposited data

How the results depend on the processing

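Fgfr1 was lower under every alternative run, with a log2 fold change from -1.44 to -0.84, and its call was lost in limma without the trend, after the length correction and without either wild-type library, where 0 and 1 of all genes passed. The count of the 10 genes called lower, 1 in the main result, was 0 in limma without the trend (1 at an unadjusted p under 0.05), 0 after the length correction (2 unadjusted), 2 with crossed replicate numbers and 0 to 2 when 1 library was left out. No gene of the 10 was called higher under any alternative (0 in limma, edgeR and DESeq2). Fgfr2 and Fgfr3 ranged from -0.20 to 0.28 and from -0.20 to 0.54 when 1 library was left out, turning negative without Wnt1-Cre;pMes-Bmp4 replicate 1.

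Over all genes, 498 higher and 884 lower in the main result, the counts were 0 and 0 in limma without the trend (3925 at an unadjusted p under 0.05), 1284 and 1582 in DESeq2, and 107 and 162 after the length correction. They ranged from 0 to 2675 higher and from 0 to 2719 lower when 1 library was left out, with 0 and 0 without wild-type replicate 1 (3185 unadjusted). For the 5 FGF lists, 3 higher and 9 lower, the counts were 0 and 0 without the trend (19 unadjusted), 1 and 3 after the length correction, 6 higher in DESeq2, and 0 to 6 higher and 0 to 23 lower when 1 library was left out. The cause of these differences was not tested.

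The replicate numbers are not said to pair the libraries, and the deviations of same-numbered libraries correlated at -0.147. With the replicate number as a block, 165 genes were higher and 543 lower, Fgfr1 kept its call (limma adjusted p 0.0284), and 0 genes of the 5 lists were higher (6 unadjusted) and 9 lower. Crossing the numbers in the block, an alternative added after seeing the data, called 1763 genes higher and 1952 lower, with 6 higher and 16 lower in the lists. For Fgf3, Fgf15, Fgf17 and Fgf18, with 11 to 71 reads in all over the 4 libraries, counting limits what can be seen.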
